A study of Mus musculus with 6 samples.

Results

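A set of 10 genes of serine, glycine, folate, asparagine and creatine synthesis was followed in the adult mouse pancreas after deletion of Ptf1a, the transcription factor that maintains acinar identity. They were Phgdh, Psat1, Psph, Shmt1, Shmt2, Mthfd2, Mthfd1l, Aldh1l2, Asns and Gatm. The genes were taken by name from these pathways, with earlier results of these data known. The shares of all genes given below are therefore a background and not a test of the set. All 10 were among the 10245 genes of the deposited table. RNA from whole pancreas was sequenced for 3 control mice of genotype Ptf1a(CreER/+) and 3 Ptf1a cKO mice of genotype Ptf1a(CreER/fl). In both groups 1 Ptf1a allele carries the tamoxifen-inducible Cre recombinase and makes no PTF1A protein, so the controls have a single working copy. Cre acts where the Ptf1a locus is active, which in the adult pancreas is the acinar cell. All 6 mice were given tamoxifen by gavage at 0.25 mg per g of body weight on 3 successive days and were killed on day 14. The control mice were 4 months old and the Ptf1a cKO mice 5 months, so age and genotype cannot be told apart. The male mice were control replicate 1 and Ptf1a cKO replicate 2, and the other 4 mice were female.

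Serine is made from the glycolytic intermediate 3-phosphoglycerate by PHGDH, PSAT1 and PSPH acting in turn. Serine hydroxymethyltransferases then split serine into glycine and a carbon unit carried by folate, SHMT1 in the cytosol and SHMT2 in mitochondria, and MTHFD2, MTHFD1L and ALDH1L2 process the mitochondrial folate unit. ASNS makes asparagine from aspartate and glutamine, and GATM joins glycine and arginine into the precursor of creatine. Acinar cells make and secrete digestive enzymes in very large amounts and so draw heavily on amino acids, and the pancreas is among the tissues rich in GATM. Many of these genes are known targets of ATF4, the transcription factor induced when amino acids run short or protein folding in the endoplasmic reticulum fails.

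The deposited values are normalized read counts, with the median gene between 125.0 and 128.5 in every library. All genes together summed to between 17949889 and 21175836 normalized counts in the control libraries and to 5527104 to 8981107 in Ptf1a cKO. The sums reflect how libraries were scaled rather than how deeply they were sequenced, and precision could be judged from the replicate mice alone. Because the totals differ so widely, all comparisons were repeated after giving every library the same total over all genes, a scaling called equal totals here, under which the median log2 fold change of all genes moved from 0.036 to 1.49. With equal totals 1.26% of all genes were called lower and 93.6% higher, and every count under that scaling is to be read against these shares. Ptf1a itself stood at 566, 601 and 652 in the control mice and at 19.8, 70.1 and 10.2 in the Ptf1a cKO mice. Digestive enzymes took 76.8% to 80.2% of all gene counts in the controls and 35.2% to 60.4% in Ptf1a cKO, and 21 of 24 of them were lower past the threshold used throughout, an adjusted p-value under 0.05 by limma (18 with equal totals). The list, called digestive enzymes throughout, also holds acinar proteins that are not enzymes, among them Clps, Cuzd1, Zg16, Sycn, Gp2 and Spink3. Fibroblast and stellate markers were higher for 9 of 10 genes (10 with equal totals), summing to 3058 to 3475 in controls and 5991 to 10563 in Ptf1a cKO. Leukocyte markers were higher for 6 of 8 (7 with equal totals), from sums of 555 to 1037 to sums of 1146 to 3756. Duct markers were higher for 4 of 9 (9 with equal totals), from sums of 5612 to 6331 to sums of 27980 to 111713, with Sox9 at a log2 fold change of 2.21 and Krt19 at -0.01. Most of the sum in Ptf1a cKO was Spp1, and without it the other 8 summed to 4083 to 4373 in controls and 6373 to 7009 in Ptf1a cKO. Of 7 endothelial markers 0 passed the threshold by limma (7 higher with equal totals), and 2 had an unadjusted p-value under 0.05, both higher. In RNA from whole tissue, fewer cells of a type and less RNA per cell cannot be told apart, and the part of cell composition in the values below was not tested.

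Of the 10 genes, 8 were lower in Ptf1a cKO past the threshold and 0 were higher by limma, and with equal totals 3 were lower (Psat1, Aldh1l2 and Gatm) and 3 higher (Shmt1, Asns and Mthfd2). Across all 10245 genes 16.8% were called lower and 17.1% higher with the values as deposited, and 1.26% and 93.6% with equal totals. Neither Shmt1 nor Asns, the genes not called, reached an unadjusted p-value under 0.05. The control and Ptf1a cKO values did not overlap for the 8 genes called lower, against 24.3% of all genes apart in the lower direction and 26.5% in the higher. A negative log2 fold change was seen for 9 of the 10 genes and for 46.9% of all genes. The median was -1.07 for the 10 genes and 0.036 for all genes on the log2(value + pseudocount) scale, and 0.38 and 1.49 with equal totals. As deposited, Psat1, Aldh1l2, Gatm, Shmt2 and Phgdh were lower by more than 1 on this scale and past the threshold, which 4.69% of all genes were, and of these Shmt2 and Phgdh changed sign with equal totals. The genes other than Shmt1 lay under the median of all genes with either scaling. Equal totals shifted these genes and that median by nearly the same amount, so the scaling could hardly change their place.

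**Figure D1:**
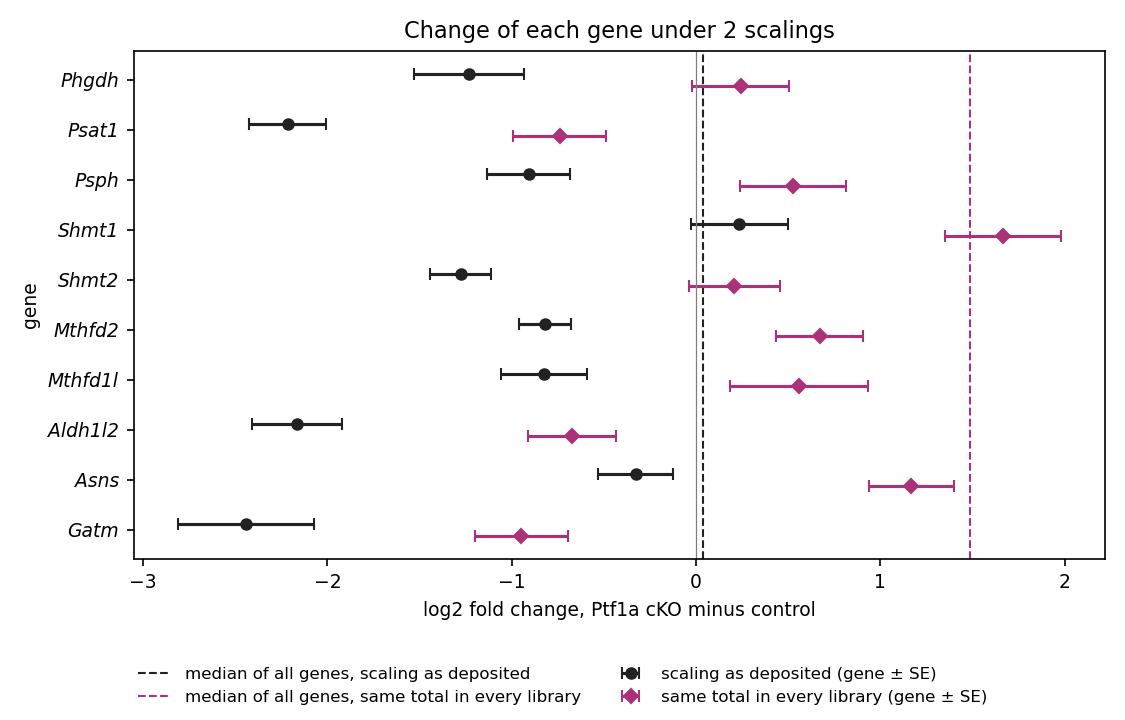
Log2 fold change of each of the 10 genes, Ptf1a cKO minus control, with its standard error, for the values as deposited (black circles) and for equal totals in every library (purple diamonds). Dashed lines mark the median of all genes, 0.036 as deposited and 1.49 with equal totals. In each case 9 of the 10 genes lie left of the matching line, since the scaling shifts genes and median nearly alike. Phgdh, Psph, Shmt2, Mthfd2, Mthfd1l and Asns change sign.

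The start sites of these genes were searched for the DNA words of the factors named above. For 9 of the 10 genes a promoter was given by RefSeq (GRCm38.p6), with a pair of start sites for Psat1 and none given for Aldh1l2, and the 250 bases before each start were read on both strands. The words were TGATGNAA, the composite site of ATF4 with a C/EBP partner, CAGCTG and CACCTG, E-boxes bound by the basic helix-loop-helix family to which PTF1A belongs, TGGGAA, the core bound by its partner RBPJ or RBPJL, and CACGTG, another E-box. TTCCCA is the same word as TGGGAA read on the other strand, and no word overlaps another in the sites found. They occurred in 3.45%, 13%, 17.2%, 21.6% and 6.02% of 32851 promoter windows of this length. The sites below, 30 bases each and on the minus strand, are shown to set the matches of Asns and Shmt1, which did not pass the threshold, beside those of Gatm and Shmt2, which were lower (Shmt2 not with equal totals). Capitals mark the matched word, and positions count back from the start site.
Asns, chr6:7693214-7693243, word at -23 to -16: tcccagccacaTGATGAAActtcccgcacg
Shmt1, chr11:60811331-60811360, word at -83 to -78: atcgcgcgtgggCAGCTGggggcgggctct
Shmt1, chr11:60811422-60811451, word at -174 to -169: gtcccctcctccTTCCCAccccctccagtt
Gatm, chr2:122611331-122611360, word at -71 to -66: ggacgccgaggcCACCTGttcctggcagcc
Shmt2, chr10:127522510-127522539, word at -83 to -78: gacttgtatagaTGGGAAagagcaaagtaa
Shmt2, chr10:127522482-127522511, word at -55 to -50: aaaaaactacaaTTCCCAgaaggcaatttt
Asns was the gene with the ATF4 word, in 1 of 10 windows. The windows of Phgdh, Psat1, Psph, Mthfd2 and Mthfd1l held none of the words, and CACGTG occurred in none of the windows. A match describes the letters only, and no binding was measured.

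All 3 enzymes of the serine pathway proper were lower in Ptf1a cKO. Phgdh encodes the first and committed enzyme and lies on chromosome 3 of GRCm38 from 98313170 to 98339990. Control mice had 390, 333 and 380 normalized counts and Ptf1a cKO mice 103, 275 and 128. Every Ptf1a cKO value lay under every control value, but replicate 2 kept far more Phgdh than the other two. The mean went from 368 ± 30.3 to 169 ± 92.7 (SD, n = 3 each), 2.18-fold lower, and the log2 fold change was -1.23 (SE 0.30, adjusted p = 0.0129 by limma; 0.24 with equal totals). Leaving out single libraries moved it between -1.64 and -0.95, always past the threshold. The margin was narrow without control replicate 1 (adjusted p = 0.0493 by limma).

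Psat1, the aminotransferase of the second step, lies on chromosome 19 from 15904678 to 15947337 and changed most of the 3. Its values were 645, 629 and 723 normalized counts in the controls and 115, 205 and 117 in Ptf1a cKO. The groups were far apart, and replicates 1 and 3 of Ptf1a cKO were nearly equal. The mean fell 4.57-fold, from 666 ± 50.6 to 146 ± 51.5 (SD, n = 3 each), with a log2 fold change of -2.22 (SE 0.21, adjusted p = 1.64e-04 by limma). It remained lower with equal totals, at -0.74 (adjusted p = 0.00534 by limma). Among all genes Psat1 stood 94th from the lowest log2 fold change.

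Psph, the phosphatase that releases free serine, lies on chromosome 5 from 129765558 to 129787449 and was the least abundant of the 3. Its values were 127, 120 and 77.7 in the controls and 57.0, 67.4 and 42.7 in Ptf1a cKO. The groups did not overlap, though control replicate 3 came close to the highest Ptf1a cKO value. The mean fell 1.94-fold, from 108 ± 26.7 to 55.7 ± 12.4 (SD, n = 3 each), and the log2 fold change was -0.91 (SE 0.22, adjusted p = 0.0136 by limma; 0.53 with equal totals). The call was lost without control replicate 1 (-0.78, adjusted p = 0.0588 by limma) and without control replicate 2 (-0.83, adjusted p = 0.0561 by limma). Psph overlaps Cct6a on the opposite strand, and whether strand was used in counting is not given in the sources used here. Cct6a, a subunit of a cytosolic chaperonin, had a log2 fold change of 0.023 and was not called.

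**Figure D2:**
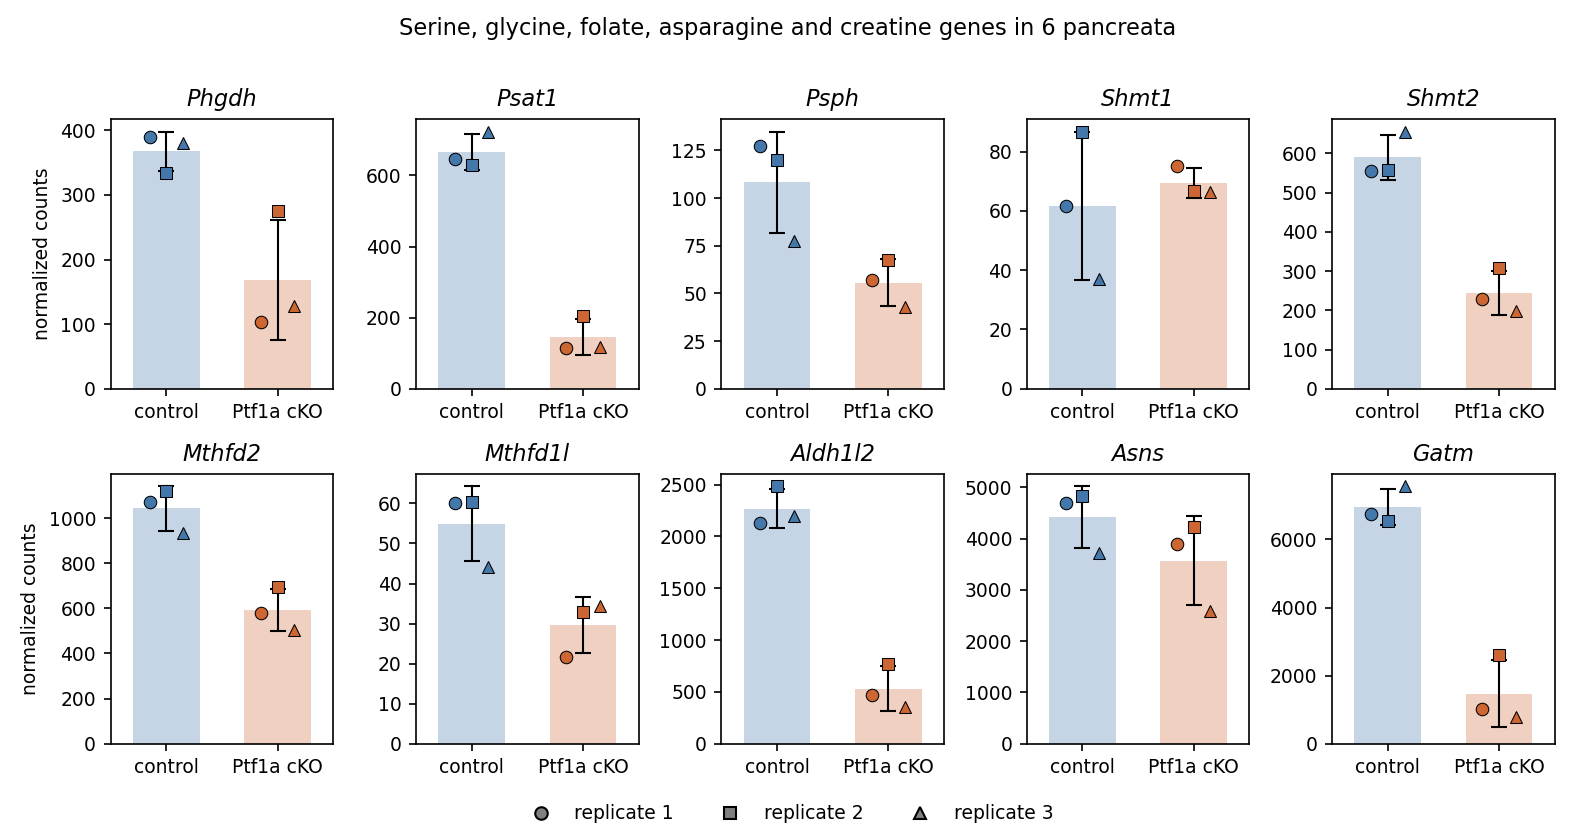
Normalized counts of each of the 10 genes in the 3 control and 3 Ptf1a cKO pancreata on linear axes; symbols give the replicate, bars the mean and error bars the SD (n = 3). The groups are apart for 8 genes and overlap for Shmt1 and Asns, and Ptf1a cKO replicate 2 (squares) is the highest of its group for 8 genes.

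The mitochondrial and cytosolic hydroxymethyltransferases differed. Shmt2, on chromosome 10 from 127517123 to 127522444, held 556, 557 and 655 normalized counts in the controls and 229, 307 and 198 in Ptf1a cKO. The groups were well apart, and the values within each lay close together. Its mean fell 2.41-fold, from 589 ± 57.2 to 245 ± 56.0 (SD, n = 3 each), with a log2 fold change of -1.28 (SE 0.16, adjusted p = 6.34e-04 by limma; 0.21 with equal totals). It stayed past the threshold without each library in turn. Its annotated overlap with Ndufa4l2 could not be checked because that gene is not in the table.

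Shmt1, on chromosome 11 from 60788104 to 60811718, showed no such change. Its values were 61.5, 86.7 and 36.9 in the controls and 75.2, 66.7 and 66.3 in Ptf1a cKO. The groups overlapped fully, since the highest and the lowest of the 6 libraries were both controls. The means were 61.7 ± 24.9 and 69.4 ± 5.01 (SD, n = 3 each), and the log2 fold change was 0.23 (SE 0.26, adjusted p = 0.516 by limma), or -0.07 without control replicate 3. With equal totals Shmt1 was called higher, at 1.66, near the median of all genes under that scaling. Smcr8, which overlaps Shmt1 on the opposite strand, was not called either, with a log2 fold change of -0.07.

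The 3 mitochondrial folate genes were all lower, by unequal amounts. Mthfd2, the dehydrogenase and cyclohydrolase of mitochondria, lies on chromosome 6 from 83305691 to 83325908 and held 1073, 1121 and 933 normalized counts in the controls and 577, 693 and 506 in Ptf1a cKO. The groups were apart, and the Ptf1a cKO libraries differed less from each other than for Mthfd1l or Aldh1l2, with a coefficient of variation of 15.9%. Its mean fell 1.76-fold, from 1042 ± 97.6 to 592 ± 94.4 (SD, n = 3 each), and the log2 fold change was -0.82 (SE 0.14, adjusted p = 0.00268 by limma). The direction turned with equal totals, to 0.67 (adjusted p = 0.00716 by limma).

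Mthfd1l, the mitochondrial formate-releasing synthetase on chromosome 10 from 3973118 to 4167081, had the lowest mean per length of all 10 genes. It held 60.1, 60.4 and 44.1 normalized counts in the controls and 21.7, 33.0 and 34.4 in Ptf1a cKO. The groups were apart, and here replicate 3 and not replicate 2 was the highest of Ptf1a cKO. The mean fell 1.85-fold, from 54.9 ± 9.35 to 29.7 ± 6.97 (SD, n = 3 each), with a log2 fold change of -0.83 (SE 0.23, adjusted p = 0.0240 by limma; 0.56 with equal totals). The call was lost without control replicate 1 (-0.77, adjusted p = 0.0923 by limma), without control replicate 2 (-0.76, adjusted p = 0.0937) and without Ptf1a cKO replicate 1 (-0.63, adjusted p = 0.0690). It was also lost with the same total over all genes except the digestive enzymes, at -0.65 (adjusted p = 0.0664 by limma).

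Aldh1l2, the mitochondrial enzyme that oxidises formyl-folate and yields NADPH, lies on chromosome 10 from 83487450 to 83534140 and changed most of the 3. It held 2130, 2483 and 2195 normalized counts in the controls and 468, 770 and 350 in Ptf1a cKO. No Ptf1a cKO library came near a control, and the order within Ptf1a cKO was replicate 2, 1, 3. The mean fell 4.29-fold, from 2269 ± 188 to 529 ± 217 (SD, n = 3 each), with a log2 fold change of -2.17 (SE 0.25, adjusted p = 3.56e-04 by limma). It remained lower with equal totals, at -0.67 (adjusted p = 0.00714 by limma). D10Wsu102e, which overlaps it on the opposite strand, had a log2 fold change of -0.09 and was not called.

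Asns stood apart from the genes that changed. It lies on chromosome 6 from 7675169 to 7693254 and held 4700, 4824 and 3725 normalized counts in the controls and 3902, 4229 and 2584 in Ptf1a cKO. The groups overlapped, with control replicate 3 under both replicate 1 and replicate 2 of Ptf1a cKO. The means were 4416 ± 602 and 3571 ± 871 (SD, n = 3 each), a ratio of 0.809, and the log2 fold change was -0.33 (SE 0.20, adjusted p = 0.241 by limma). With equal totals it was called higher, at 1.17 (adjusted p = 1.02e-05 by limma), still under the median of all genes. None of the 6 fits without a library brought it past the threshold, the smallest adjusted p-value being 0.0928 by limma.

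Gatm, on chromosome 2 from 122594467 to 122611303, had the most negative log2 fold change of the 10 genes with either scaling. It held 6733, 6552 and 7556 normalized counts in the controls and 1021, 2600 and 775 in Ptf1a cKO. The controls lay close together, while Ptf1a cKO replicate 2 held more than both other Ptf1a cKO libraries combined. The mean fell 4.74-fold, from 6947 ± 535 to 1465 ± 990 (SD, n = 3 each), with a log2 fold change of -2.44 (SE 0.37, adjusted p = 0.00143 by limma). It ran from -2.96 to -2.09 when single libraries were left out and was -0.95 with equal totals (adjusted p = 5.03e-04 by limma).

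Among the 3 Ptf1a cKO libraries, replicate 2 was the highest in 8 of the 10 genes and replicate 3 the lowest in 7. Among all genes called lower, replicate 2 was the highest in 66.7% and replicate 3 the lowest in 64.2%, and among all genes replicate 2 was the highest in 34.6%. It kept 11.6% of the control mean of Ptf1a, against 3.27% in replicate 1 and 1.69% in replicate 3. The acinar transcription factor Rbpjl stood at 14.3%, 47.5% and 12.6% of its control mean in replicates 1, 2 and 3, and the median digestive enzyme at 19.5%, 29.8% and 12.3%. Gatm followed the same order, with 14.7%, 37.4% and 11.2%, as did Aldh1l2 with 20.6%, 33.9% and 15.4%. Other genes departed from this order. Psat1 stood at 17.3%, 30.8% and 17.5% and Phgdh at 28.1%, 74.8% and 34.9%, both with replicate 1 the lowest. Mthfd1l was highest in replicate 3, with 39.5%, 60.1% and 62.7%. Shmt1 was highest in replicate 1, with 121.8%, 108.1% and 107.4%. Replicate 2 was the male of its group. Sex was balanced between the groups, so as a covariate it could not move the log2 fold changes. No call among the 10 genes changed with it. The parts of sex and of the remaining Ptf1a in the order of the replicates were not tested.

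**Figure D3:**
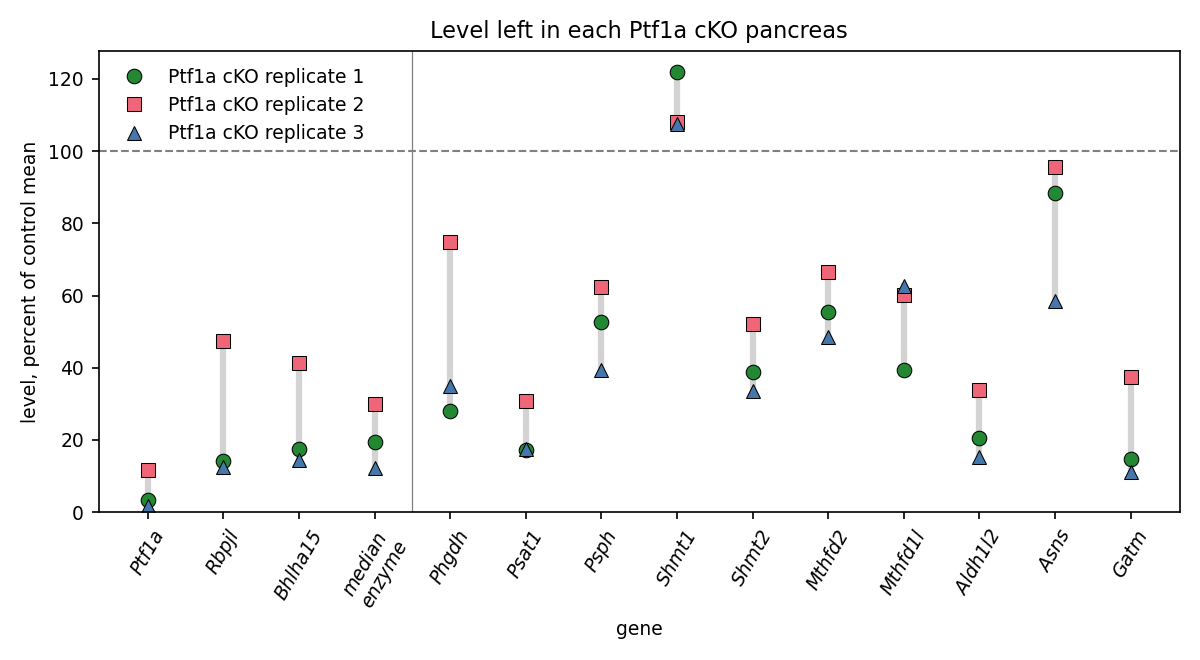
Level left in each of the 3 Ptf1a cKO pancreata, as a percent of the control mean, for Ptf1a, Rbpjl, Bhlha15 (an acinar transcription factor) and the median digestive enzyme on the left and for the 10 genes on the right. Replicate 2 (squares) keeps the most in most columns, from 11.6% of Ptf1a to 95.8% of Asns, and Shmt1 is above 100% in all 3.

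Ratios of a pair of genes within a library hardly depend on how libraries are scaled. They were compared by exact permutation tests over the 6 libraries, whose smallest two-sided p-value with 3 against 3 is 0.1. Every ratio with the groups apart therefore has p = 0.1 by the exact test, and 0.133 after adjustment over the 28 ratios computed, so no ratio could pass a threshold of 0.05. The log2 ratio of Shmt2 to Shmt1 was 3.11, 2.64 and 4.03 in the controls and 1.56, 2.14 and 1.53 in Ptf1a cKO. The groups were apart, and the mean difference was -1.51, a 2.85-fold lower mitochondrial to cytosolic ratio. Aldh1l2 to its cytosolic relative Aldh1l1 went from 1.19, 1.36 and 1.96 to -0.45, 0.69 and -0.43, a mean difference of -1.57 with the groups apart. Against Mthfd1, the cytosolic enzyme with the combined activities, Mthfd2 and Mthfd1l each shifted by -0.66, again with the groups apart. The Mthfd2 shift was -0.42 without control replicate 3, and that of Mthfd1l was -0.42 without Ptf1a cKO replicate 1 and -0.50 with a pseudocount of 1, where its groups overlapped (p = 0.2 by the exact permutation test). In all 4 pairs the mitochondrial partner was the lower relative to the cytosolic one in Ptf1a cKO, though Mthfd1 served for both Mthfd2 and Mthfd1l. The other shifts also shrank without control replicate 3, to -1.12 for Shmt2, -0.49 for Mthfd1l and -1.34 for Aldh1l2.

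Within the serine pathway Psat1 shifted by -0.98 against Phgdh and by -1.31 against Psph, with the groups apart in both. The ratio of Asns to Asnsd1, a gene with an asparagine synthetase domain, differed by 0.21 and overlapped (p = 0.2 by the exact permutation test). Gatm and Gamt, the enzyme that completes creatine, kept overlapping ratios, with a difference of 0.11 (p = 0.6 by the exact permutation test). Relative to the median digestive enzyme, Psat1 differed by -0.04, Aldh1l2 by 0.010 and Gatm by -0.27, each with overlapping groups. The other 7 genes were higher relative to the enzymes, with the groups apart, by between 0.90 for Shmt2 and 2.41 for Shmt1, with Asns at 1.85. Against the enzymes, Psat1 and Aldh1l2 changed sign when single libraries were left out, reaching 0.11 for Psat1 without Ptf1a cKO replicate 2 and -0.15 for Aldh1l2 without Ptf1a cKO replicate 3.

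**Figure D4:**
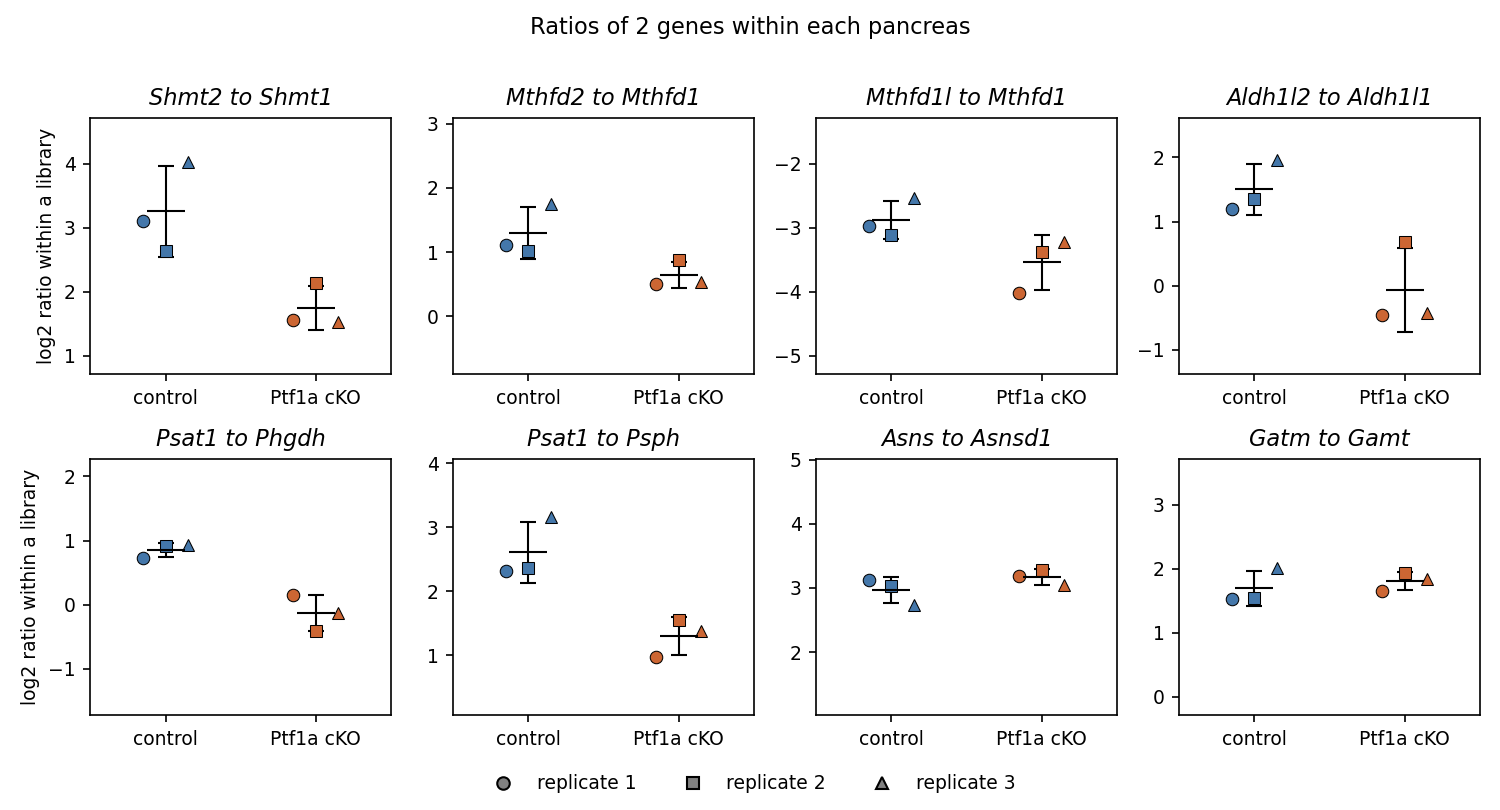
Log2 ratio of a pair of genes within each library for 8 pairs, with the mean and SD of 3 pancreata per group. The groups are apart for Shmt2 to Shmt1, Mthfd2 to Mthfd1, Mthfd1l to Mthfd1, Aldh1l2 to Aldh1l1, Psat1 to Phgdh and Psat1 to Psph, and overlap for Asns to Asnsd1 and Gatm to Gamt.

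Levels of different genes were compared as normalized counts per kb of exon, over the exon union of the GENCODE annotation of GRCm38. In the controls Gatm led with a mean of 2315 per kb, followed by Asns with 1615. Aldh1l2 (302) and Mthfd2 (299) followed and differed by less than the spread between mice, as did Psat1 (156) and Phgdh (148) after Shmt2 (190). Psph (25.0), Shmt1 (15.9) and Mthfd1l (12.4) were the least abundant, and the last of these was within the spread of Shmt1. In Ptf1a cKO the order changed at the top, with Asns at 1306 per kb and Gatm at 488. Psat1 stood at 34.2 per kb in Ptf1a cKO, under Phgdh at 67.9.

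Genes of neighbouring pathways were counted from 8 lists with 108 of 132 genes in the table. The threshold was passed by 49 (45.4%) in the lower and 17 (15.7%) in the higher direction, beside 16.8% and 17.1% of all genes, and the median log2 fold change was -0.43. With equal totals 11 were lower and 76 of the 108 higher, where 93.6% of all genes were called higher. Each list below is to be read against these shares of all genes. Amino acid transporters had 12 of 16 lower and 0 higher, or 2 lower and 9 higher with equal totals. Without adjustment 13 had a p-value under 0.05, all lower. Slc38a3, a glutamine and asparagine carrier, had means of 3336 ± 373 in controls and 532 ± 321 in Ptf1a cKO (SD, n = 3 each) and a log2 fold change of -2.80. The glycine transporter Slc6a9 and the serine carrier Slc1a4 were lower by log2 fold changes of -2.04 and -1.97 (-0.55 and -0.51 with equal totals, where Slc1a4 lost its call). Sfxn1, which carries serine into mitochondria, was lower by a log2 fold change of -0.77 (0.72 with equal totals).

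Of 23 genes of the ATF4 axis in the table, 14 were lower and 1 was higher, with a median of -0.87 (4 lower and 13 higher with equal totals). Atf4 itself held 2199, 2186 and 2475 normalized counts in the controls and 1142, 1457 and 812 in Ptf1a cKO. The groups were apart, and the log2 fold change was -1.04 (SE 0.20, adjusted p = 0.00400 by limma; 0.45 with equal totals). Its known targets Stc2, Chac1 and Eif4ebp1 had log2 fold changes of -2.75, -2.53 and -2.05, all past the threshold. Other targets did not pass the threshold, with Ddit3 at -0.14 (1.30 with equal totals) and Trib3 at -0.65 (0.76 with equal totals, and past the threshold at -0.93 without control replicate 3). The 1 higher gene was Atf3, a stress-induced factor, at 1.06, and its call was lost without control replicate 1 (0.77) and without replicate 1 (1.05) or replicate 3 (1.01) of Ptf1a cKO.

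Of 11 genes of glycine cleavage and use, 5 were lower and 3 higher (3 and 6 with equal totals). Gcat and Tdh, which together turn threonine into glycine, were lower by log2 fold changes of -2.75 and -2.27, and Pipox, a sarcosine oxidase that also yields glycine, by -2.15. The other 2 lower genes, named after their values were seen, were Gnmt at -1.96 and Sardh at -1.14, which make and break down sarcosine. The higher genes serve glutathione synthesis, Gss at 0.77 and Gclc at 0.69, and glycine cleavage, Amt at 0.46. Gclc and Amt lost their calls when single libraries were left out, which left 1 higher gene without control replicate 1, control replicate 2, Ptf1a cKO replicate 1 or Ptf1a cKO replicate 3. Among 14 genes of serine use 2 were lower and 6 higher (0 and 12 with equal totals). As deposited these are 14.3% and 42.9%, beside 16.8% and 17.1% of all genes. The lower genes were Cbs at -1.52 and Cth at -1.30 (-0.03 and 0.18 with equal totals, both calls lost), the pair that turns serine and homocysteine into cysteine. Serine racemase Srr at 1.05, the phospholipid enzyme Pisd at 0.74 and Serinc2 at 0.65 were the highest.

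Of 19 genes of asparagine, aspartate, glutamate and proline metabolism, 10 were lower and 3 higher (1 and 14 with equal totals). Gls2, a glutaminase, held 1401, 1407 and 979 normalized counts in the controls and 78.2, 216 and 60.2 in Ptf1a cKO, a log2 fold change of -3.58. Glul, which makes glutamine, moved the other way, from 147, 79.9 and 175 to 517, 709 and 988, a log2 fold change of 2.45. Neither gene had a Ptf1a cKO library within the control range. Odc1 of polyamine synthesis was lower at -1.95 and Pycr1 of proline synthesis at -1.58 (-0.49 and -0.10 with equal totals, both calls lost), while Arg2 and Oat of arginine breakdown were higher at 1.20 and 0.93. Asnsd1 was lower at -0.53 (0.95 with equal totals), with the call lost without control replicate 1 (-0.56) and without control replicate 2 (-0.50).

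Of 16 genes of the folate cycle 2 were lower and 2 higher (0 and 14 with equal totals), and 4 were lower without control replicate 3. These are 12.5% in each direction as deposited, under the 16.8% and 17.1% of all genes. The lower genes were the folate carrier Slc19a1 at -1.04 (0.39 with equal totals) and Fpgs, which retains folates in the cell with means of 574 ± 73.8 in controls and 286 ± 48.2 in Ptf1a cKO (SD, n = 3 each; log2 fold change 0.48 with equal totals). The higher genes were Folr2, a folate receptor known from macrophages, at 1.08 and the mitochondrial folate carrier Slc25a32 at 0.91. The cytosolic Mthfd1 stood at -0.16 (1.32 with equal totals, and past the threshold at -0.47 without control replicate 3). Aldh1l1 stood at -0.60 (0.89 with equal totals), past the threshold at -0.85 without control replicate 3 and at -0.74 without Ptf1a cKO replicate 1. Of the 4 creatine genes Gamt was lower at -2.55, Ckb and Ckmt1, creatine kinases, were higher at 1.77 and 0.73, and the creatine transporter Slc6a8 did not pass the threshold at 0.38 (1.83 and past it with equal totals). Of 5 tRNA synthetases for serine, glycine and asparagine 3 were lower and 0 higher, with 0 higher also at an unadjusted p-value under 0.05. They were Nars at -0.96, Gars at -0.67 and Sars at -0.42 (0.53, 0.82 and 1.07 with equal totals), and 1 remained called without control replicate 1, control replicate 2 or Ptf1a cKO replicate 3.

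**Figure D5:**
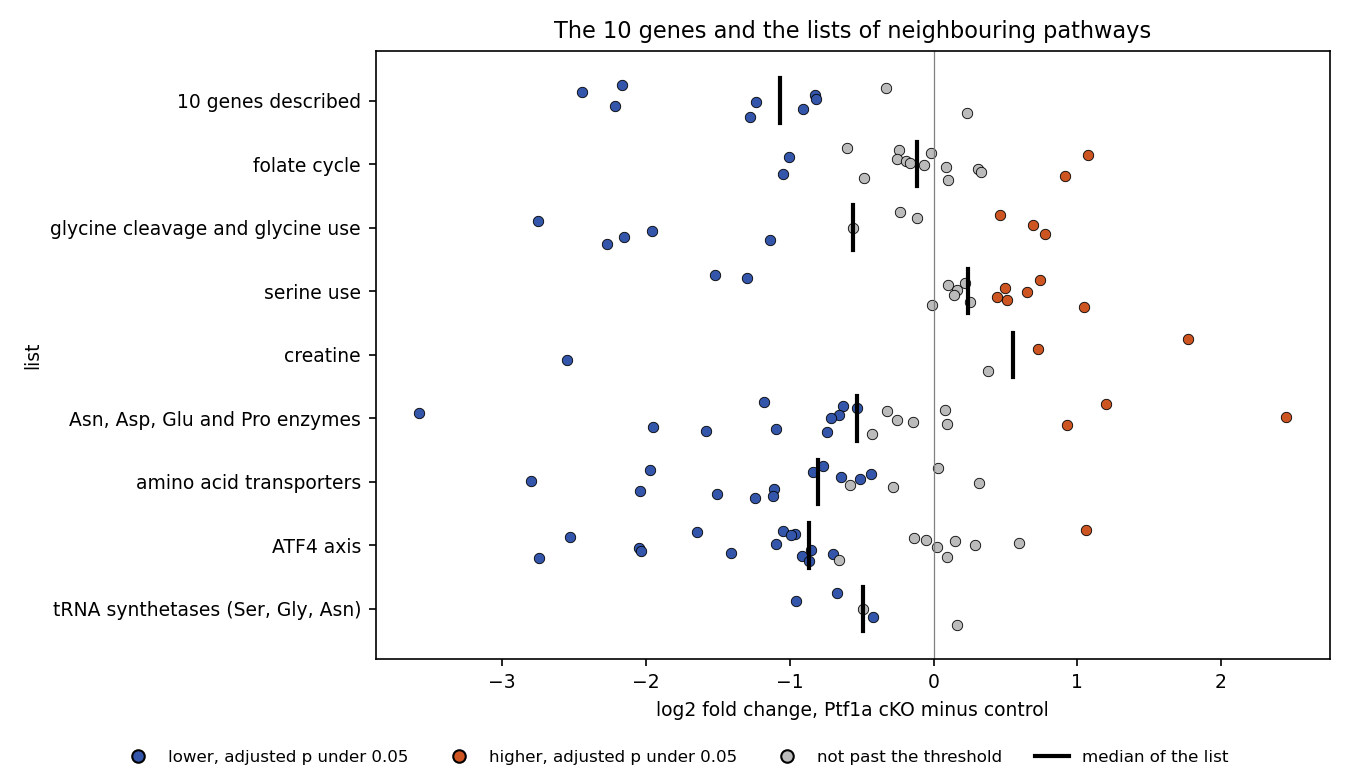
Log2 fold change, Ptf1a cKO minus control, of the 10 genes and of the genes of 8 neighbouring lists; each point is a gene, coloured by its call at an adjusted p-value under 0.05, and black bars are medians. With the values as deposited the medians run from -1.07 for the 10 genes to 0.55 for creatine genes; with equal totals the median of the 10 genes is 0.38.

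The genes most like the serine pathway were named by Pearson's r, over the 6 libraries, with the mean log2 level of Phgdh, Psat1 and Psph. The libraries share a scaling and fall into 2 groups, so r mostly repeats the group difference, and 718 genes had an r above 0.95. The 5 highest were Fgf21, a hormone made by acinar cells (r = 0.998), the guidance cue Ntn1, the transcription factor Ets2, Gdpd5 and the corepressor Tle6. Fgf21 held 480, 430 and 394 normalized counts in the controls and 12.9, 88.9 and 14.6 in Ptf1a cKO. Of the other 7 genes described here Gatm came closest, with r = 0.990 and rank 87 of 10242, followed by Aldh1l2 at 0.986, Mthfd2 at 0.979 and Shmt2 at 0.977. Mthfd1l had an r of 0.884, Asns of 0.700 and Shmt1 of -0.30.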

How the data were processed

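RNA from 6 whole pancreata was sequenced by the authors as 50-nucleotide single-end reads. The submitters' processing notes name TopHat2 2.0.4, Bowtie 0.12.7.0, SAMtools 0.1.18.0, HTSeq 0.6.0 and the genome build mm9, and the study's methods name edgeR with TMM normalization. The annotation, the filter on low values and the use of strand are not given in the sources used here. The deposited unit is a signal: normalized read counts, 1 value per gene symbol and library, which the authors scaled across libraries. They are not whole, so no count test was run, and they no longer carry the depth of each library. The 3 entries that name no gene, 75.7% to 82.6% of a library's normalized counts, were left out, and 17 symbols that a spreadsheet had turned into dates were tested but not named.

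Values were divided by 13.6393, the same factor in all libraries, and log2(value + 0.25) was taken (a pseudocount of 3.41 normalized counts), which understates changes of low genes. A mean of at least 0.25 removed 0 genes. Groups, given by the sample titles, were compared over all 10245 genes with limma 3.58.1 in R 4.3.3 (lmFit, eBayes with trend, two-sided, Benjamini-Hochberg), with an adjusted p-value under 0.05 as the threshold. Ratios within libraries were tested by exact permutation in Python 3.11.15 with scipy 1.17.1. The fit was tested on simulated data. Each mouse gave 1 library, and p-values measure the spread between these mice. Positions come from GRCm38, matched by symbol, and not from the build of the alignment.

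The 10 genes and the lists were chosen with earlier results of these data known, and the promoter words after the values were seen. Named beside the 10 genes were the 3 largest rises and falls past the threshold in each list, the partners in the ratios, Ptf1a, Atf4, Ddit3, Trib3, Chac1, Slc6a8, Gamt, Sfxn1, Slc25a32 and the 5 genes most like Phgdh, Psat1 and Psph. Alternatives were other pseudocounts, filters and scalings, limma with robust estimation or no trend, a replicate block, sex as a covariate, a threshold of 0.01 and each library left out. The ratio of Mthfd2 to Mthfd2l was not run because Mthfd2l is not in the table. Lists of endocrine (0 of 8 called), adipose (1 of 5 higher) and proliferation markers (3 of 6 higher) were also read, and acinar transcription factors were lower for 4 of 5. With equal totals 8 endocrine, 5 adipose and 6 proliferation markers were higher, and 3 acinar transcription factors were lower and 1 higher.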

Additional observations from a re-analysis of the deposited data

How the results depend on the processing

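Giving every library the same total turned most directions among the 10 genes. Scaling to the same 75th percentile or by the median of ratios left 8 of them lower and 0 higher. Of all 10245 genes 1554 were lower and 1992 higher with the 75th percentile, and 1822 and 1662 with the median of ratios. With the same total in every library, 3 of the 10 genes were lower and 3 higher, against 8 and 0 as deposited, and of the other pathway genes 11 were lower and 76 higher, against 49 and 17. Of all genes 1.26% were then called lower and 93.6% higher. The log2 fold change then turned positive for Phgdh (0.24), Psph (0.53), Shmt2 (0.21), Mthfd2 (0.67), Mthfd1l (0.56) and Asns (1.17), and for Aldh1l1 (0.89), Asnsd1 (0.95), Atf4 (0.45), Cth (0.18), Ddit3 (1.30), Fpgs (0.48), Gars (0.82), Mthfd1 (1.32), Nars (0.53), Sars (1.07), Sfxn1 (0.72), Slc19a1 (0.39) and Trib3 (0.76), while Cbs (-0.03), Odc1 (-0.49), Pycr1 (-0.10) and Slc1a4 (-0.51) kept their sign and lost their calls. That scaling gives the falling digestive enzymes' share of the total to all other genes, which moved the median of all genes to 1.49. With the same total outside the digestive enzymes 7 of the 10 genes were lower, and Ddit3 (0.048) and Mthfd1 (0.028) changed sign. That scaling called 1027 of all 10245 genes lower and 2952 higher, against 1724 and 1751 as deposited. At an adjusted p-value under 0.01, 5 of the 10 genes were lower and 11 other pathway genes higher. The share of all genes past that stricter threshold was not counted, so these counts have no background beside them. Without single libraries, between 6 and 8 of the 10 genes were lower, beside 1182 to 1747 of all genes. The count was 6 without control replicate 1 and without control replicate 2, and 7 without Ptf1a cKO replicate 1. The log2 fold changes of Shmt1 (-0.074 to 0.51) and Mthfd1 (-0.47 to 0.028) changed sign. Of the ratios within libraries, Psat1 to the median digestive enzyme turned positive with a pseudocount of 1 (0.040). Without single libraries that ratio ran from -0.33 to 0.11, Aldh1l2 to the same median from -0.15 to 0.12, and Shmt1 to the median of all genes from -0.082 to 0.50. A filter on a mean of at least 5 left out Shmt1 and Mthfd1l. The other pseudocounts, filters and limma settings, and sex as a covariate, changed no call among the 10 genes that could be tested.

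With the replicate number as a block 8 of the 10 genes were lower and 0 higher, as without it. With this block 52 other pathway genes were lower and 17 higher, beside 1711 and 1814 of all 10245 genes. Aldh1l1 passed the threshold and Amt lost its call. Whether the numbers pair the mice is not known. Deviations from the group means correlated by 0.039, 0.134 and 0.144 for equal numbers and by -0.202 to 0.083 for unequal ones. The deposited values do not carry sequencing depth, and 3 mice per group limit what differences could be called.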
